A study of Homo sapiens with 6 samples.

Results

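The 10 genes ACLY, ACSS2, ACACA, FASN, ELOVL6, SCD, FADS1, FADS2, LPIN1 and ME1 encode enzymes that supply acetyl-CoA and NADPH for fatty acids, build the chain, lengthen and desaturate it, and pass it on to glycerolipids. They were selected on the measured rise of ACLY and taken by symbol from the deposited table, where each symbol was found on 1 of 58233 gene rows. The set was put together after ACLY had been seen to stand higher in the libraries labelled siSTRN3, so the contrast between the treatments had already been used in the choice. The values of the 10 genes in that contrast are therefore given as a description, with their errors and without p-values, and p-values are given for genes outside the set. All 10 passed the filter on low values, at least 1 TPM in at least 3 libraries.

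Fatty acid synthesis starts from cytosolic acetyl-CoA, which ATP citrate lyase makes from citrate exported by mitochondria and acyl-CoA synthetase ACSS2 makes from acetate. Acetyl-CoA carboxylase and fatty acid synthase turn it into palmitate with NADPH as the reductant, and elongases and desaturases then set the length and the double bonds of the chain. Many of these genes are classical targets of SREBP transcription factors, which are held in the endoplasmic reticulum by SCAP and INSIG proteins and cut in the Golgi by the proteases of MBTPS1 and MBTPS2. Tumour cells are known to rely on this pathway for membrane lipids.

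HGC-27 is a line from an undifferentiated human gastric cancer. The first group of 3 libraries came from cells given a negative control siRNA (siNC) and the second from cells given an siRNA mixture against STRN3 (siSTRN3), both harvested 72 h after delivery with the RNAiMAX reagent in RPMI medium with serum. STRN3, the gene of the protein phosphatase 2A subunit striatin-3, stood at 3.51, 5.30 and 3.85 TPM in siNC and at 4.76, 5.0 and 5.56 TPM under the siSTRN3 label, so the targeted message was not lower under its own label. Relative to the median row, the scale used below, STRN3 was higher under that label by 0.77 ± 0.13 SE on the log2 scale (limma, adjusted p = 0.00894; 0.00818 to 0.0371 with single libraries left out), and as deposited by 0.24 ± 0.14 SE (adjusted p = 0.142). Every direction below is that of the labels. Nothing in the labels says whether the libraries of a group came from separate cultures, so SEs and p-values measure library-to-library spread, possibly technical.

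TPM is a length-corrected share of a library's total, which keeps no read number, so depth is unknown. The makeup of the totals moved with the groups: 8 rows named for ribosomal RNA took 8.64% to 9.21% of the total in siNC and 22.5% to 23.2% in siSTRN3, and protein-coding rows took 76.8% to 78.2% and 51.6% to 52.9%. The median log2 fold change of the 13004 rows tested was -0.57 as deposited. Each library was therefore also multiplied by 1 factor (0.789 to 0.805 for siNC, 1.24 to 1.27 for siSTRN3) that set its median over those rows to a common value. Fold changes below are on this scale unless called deposited, and are differences of log2(TPM + 1), which understates changes of low genes. Shares of RNA cannot tell fewer cells from less RNA per cell. Of the cell type markers, mesenchymal VIM was at 1718 to 3058 TPM, while 8 of 8 gastric lineage markers stayed under 1 TPM in every library, with MUC5AC, TFF1, TFF2, GKN1, GAST and PGC listed at 0, and 4 of 5 epithelial markers, CDH1 and EPCAM among them, stayed under 1 TPM too. CDH2 stayed under 1 TPM although it is a mesenchymal marker. Adipocyte markers (4 of 4), endothelial markers (3 of 3) and leukocyte markers (4 of 5) were under 1 TPM, while the 4 fibroblast markers summed to 298 to 311 TPM in siNC and 188 to 195 TPM in siSTRN3; their part in the results was not tested.

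The promoter windows of 4 genes are shown because they stand at the ends of the set: ACLY and ACSS2 had the highest relative fold changes, SCD the highest level, and ME1 the lowest fold change. Each runs from 250 bases before to 50 bases after a RefSeq transcript start (GRCh38.p14), 5′ to 3′ on the gene's strand, with capitals on every CCAAT or its reverse complement ATTGG, the letters bound by NF-Y, a known partner of SREBP. They lie at chr17:41918973-41919272 (minus strand), chr20:34874739-34875038 (plus), chr10:100346983-100347282 (plus) and chr6:83431002-83431301 (minus).
ACLY: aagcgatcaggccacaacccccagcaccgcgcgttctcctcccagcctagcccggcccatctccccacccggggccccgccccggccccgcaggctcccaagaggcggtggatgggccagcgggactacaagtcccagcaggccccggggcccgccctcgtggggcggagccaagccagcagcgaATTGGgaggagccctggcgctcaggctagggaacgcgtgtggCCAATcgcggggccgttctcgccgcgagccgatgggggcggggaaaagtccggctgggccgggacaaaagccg
ACSS2: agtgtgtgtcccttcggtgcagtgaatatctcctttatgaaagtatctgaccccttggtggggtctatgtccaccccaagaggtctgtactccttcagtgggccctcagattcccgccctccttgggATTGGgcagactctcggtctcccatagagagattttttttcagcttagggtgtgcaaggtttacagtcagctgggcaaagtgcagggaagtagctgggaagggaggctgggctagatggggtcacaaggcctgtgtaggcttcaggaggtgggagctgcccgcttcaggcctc
SCD: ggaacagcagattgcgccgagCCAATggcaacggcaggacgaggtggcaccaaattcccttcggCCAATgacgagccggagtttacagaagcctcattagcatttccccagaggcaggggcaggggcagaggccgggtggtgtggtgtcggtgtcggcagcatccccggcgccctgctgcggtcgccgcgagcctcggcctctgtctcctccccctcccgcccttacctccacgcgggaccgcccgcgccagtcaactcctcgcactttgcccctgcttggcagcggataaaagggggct
ME1: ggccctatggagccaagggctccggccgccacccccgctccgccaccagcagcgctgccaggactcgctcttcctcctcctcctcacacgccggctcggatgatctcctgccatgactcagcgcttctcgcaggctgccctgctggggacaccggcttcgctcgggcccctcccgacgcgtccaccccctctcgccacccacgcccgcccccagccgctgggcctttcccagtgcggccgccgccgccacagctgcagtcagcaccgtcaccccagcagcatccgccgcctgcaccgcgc

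The ACLY window holds ATTGG at -65 and CCAAT at -23, counting the first base of each match from the transcript start. The SCD window holds CCAAT at -229 and -186, the printed ACSS2 window ATTGG at -123, and the ME1 window neither. ACSS2 has a second RefSeq window (chr20:34876362-34876661), not printed, which holds neither. RefSeq windows were found for 9 of the 10 genes, 16 windows in all; none was used for FASN. CCAAT on either strand was in 7 of these 16 windows, belonging to ACLY, ACSS2, ACACA, SCD and FADS2, against 34.6% of all 35116 windows of the table. GGGCGG on either strand, the GC box of SP1, was in 13 of 16 and in 45% of all windows. Neither the E-box CACGTG nor TCACNCCAC, a core of the sterol response element, was in any of the 16 on either strand, against 7.26% and 1.13% of all windows. The 2 ACLY windows overlap each other, as do the 2 of FADS2, so the 16 are not independent, and letters in a window are a description, not a binding site.

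The highest level in the siNC libraries was that of SCD, followed by FASN, ACLY and ACACA, and these 4 made up most of the RNA of the set. SCD alone held 54.3% to 55.6% of the summed TPM of the 10 genes in siNC and 53.1% to 54.5% in siSTRN3. In siNC, SCD lay at the 97.9th percentile of the 11266 protein-coding rows with a mean of at least 1 TPM, FASN at the 93.4th, ACLY at the 86.5th and ACACA at the 82.6th. ME1 (16 ± 0.438 TPM) and FADS1 (15.7 ± 0.261 TPM) did not differ beyond their SDs, nor did LPIN1 (9.12 ± 0.757 TPM) and ACSS2 (8.44 ± 1.10 TPM). FADS2 (5.72 ± 0.232 TPM) and ELOVL6 (3.49 ± 0.232 TPM) were the lowest, ELOVL6 at the 19.0th percentile. Each of these means is the level as deposited over 3 siNC libraries with its SD.

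**Figure D1:**
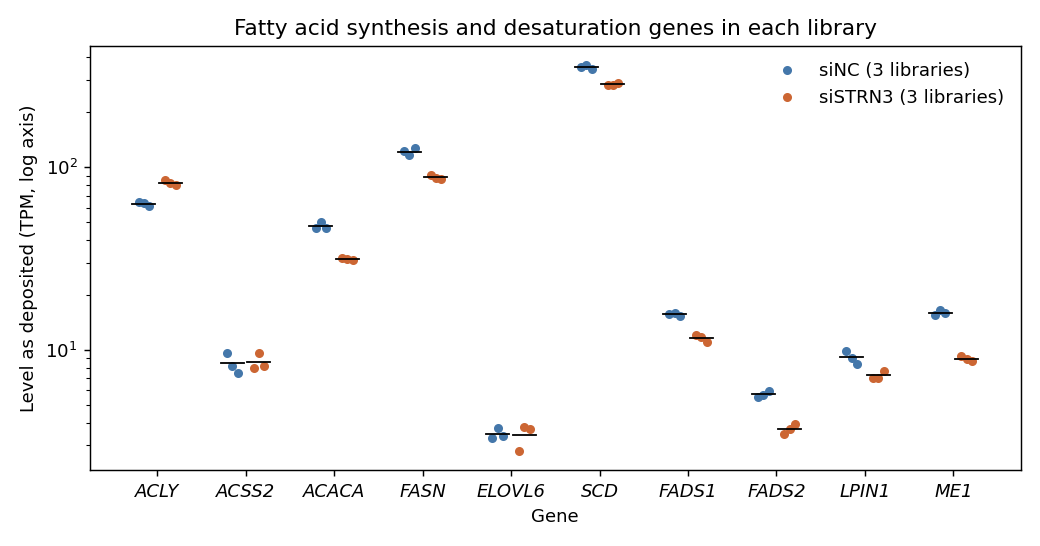
Level of each of the 10 genes as deposited, in TPM on a log axis, with 1 point per library and a bar at the mean of 3. ACLY is the gene whose 3 siSTRN3 points all lie above its 3 siNC points, from 80.1 to 84.9 against 61.5 to 64.2 TPM, while ACSS2 and ELOVL6 overlap between the groups and the other genes are lower in siSTRN3 as deposited.

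ACLY, the enzyme that splits citrate into acetyl-CoA and oxaloacetate, had the highest relative fold change of the set. It was measured at 64.2, 63.7 and 61.5 TPM in the siNC libraries and at 84.9, 82.0 and 80.1 TPM in those labelled siSTRN3. All 3 siSTRN3 libraries were above all 3 siNC libraries already on the deposited scale, where most rows went the other way. After rescaling its level was 50.4 ± 0.904 TPM in siNC and 103 ± 3.52 TPM in siSTRN3 (SD, n = 3), a log2 fold change of 1.02 ± 0.037 SE or 2.03-fold, against 0.38 ± 0.036 SE as deposited. Of all tested rows 99.1% had a relative fold change no higher. The gene lies on chromosome 17 (GENCODE release 29, GRCh38, 41866908 to 41930542), and the antisense row AC125257.2 lies wholly within its exons on the opposite strand, sharing all of its 156 bases (chromosome 17, 41867581 to 41867736). That row was listed at 80.7 TPM in siNC replicate 2 and at 0 in the other 5 libraries. Added to ACLY in TPM it brings the log2 fold change to 0.63 ± 0.30 SE, and added in proportion to the lengths of the rows, to 0.999 ± 0.040 SE.

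ACSS2, which makes acetyl-CoA from acetate, was measured at 9.63, 8.21 and 7.47 TPM in siNC and at 7.96, 9.59 and 8.14 TPM in siSTRN3. The groups overlapped as deposited. After rescaling they did not, with 6.73 ± 0.871 TPM in siNC and 10.7 ± 1.25 TPM in siSTRN3 (SD, n = 3). Its log2 fold change of 0.60 ± 0.11 SE was the second of the set, and its SD within siNC was 13% of the mean, against 2.26% for ACLY.

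ME1, the cytosolic malic enzyme, which makes NADPH as it turns malate into pyruvate, stood at the other end. It was measured at 15.6, 16.5 and 15.95 TPM in siNC and at 9.32, 8.89 and 8.68 TPM in siSTRN3. All 3 siSTRN3 libraries were lower on the deposited scale and remained lower after rescaling, at 11.2 ± 0.448 against 12.8 ± 0.267 TPM (SD, n = 3). The log2 fold change was -0.17 ± 0.053 SE, and -0.77 ± 0.054 SE as deposited, the lowest value of the set on both scales.

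The 2 enzymes that build the chain had smaller fold changes than ACLY. ACACA, acetyl-CoA carboxylase alpha, which makes malonyl-CoA, was measured at 46.7, 50.01 and 46.6 TPM in siNC and at 31.7, 31.6 and 31.0 TPM in siSTRN3. After rescaling these became 38.1 ± 1.17 and 39.4 ± 0.922 TPM (SD, n = 3) with overlapping groups, and the log2 fold change was 0.047 ± 0.040 SE, near that of the median row. FASN, the synthase that assembles palmitate, was measured at 122, 117 and 127 TPM in siNC and at 90.9, 87.3 and 85.7 TPM in siSTRN3. Its rescaled levels of 97.3 ± 5.20 and 110.3 ± 3.74 TPM (SD, n = 3) did not overlap between the groups. The log2 fold change of FASN was 0.18 ± 0.048 SE relative to the median row and -0.47 ± 0.042 SE as deposited.

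Among the genes that lengthen and desaturate the chain, ELOVL6 and SCD had the higher fold changes and the FADS pair the lower. ELOVL6, the elongase that takes palmitate to stearate, was measured at 3.31, 3.75 and 3.40 TPM in siNC and at 2.80, 3.80 and 3.70 TPM in siSTRN3. The groups overlapped as deposited and not after rescaling (2.78 ± 0.16 and 4.30 ± 0.707 TPM, SD, n = 3), and siSTRN3 replicate 1 was the lowest of its group on both scales. Its log2 fold change was 0.48 ± 0.12 SE, the least precise of the set.

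SCD, the desaturase that makes oleate from stearate, was measured at 355, 362 and 346 TPM in siNC and at 283, 281 and 287 TPM in siSTRN3. As deposited all siSTRN3 libraries were lower. After rescaling all were higher, at 356 ± 1.52 against 283 ± 3.37 TPM (SD, n = 3). The log2 fold change of 0.33 ± 0.022 SE had the smallest SE of the set. The pseudogene SCDP1, which matches 20.1% of the SCD transcript at up to 96.7% identity, was at 0.10 TPM or less in every library, and adding it left the fold change at 0.33. AC126365.1 matches 28.3% at up to 95.5% identity (mean 0.255 TPM) and AC126365.2 matches 7.0% at up to 96.6% (mean 0.072 TPM). Neither of these rows was added to SCD.

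FADS1 and FADS2, the delta-5 and delta-6 desaturases of polyunsaturated fatty acids, lie on opposite strands of chromosome 11. The annotated span of FADS1 (61799625 to 61829318) falls within that of FADS2 (61792980 to 61867354). FADS1 was measured at 15.8, 15.9 and 15.4 TPM in siNC and at 12.1, 11.7 and 11.1 TPM in siSTRN3, with a log2 fold change of 0.20 ± 0.055 SE after rescaling. FADS2 was measured at 5.53, 5.66 and 5.98 TPM in siNC and at 3.48, 3.71 and 3.91 TPM in siSTRN3, with a log2 fold change of 0.017 ± 0.075 SE. The rescaled groups of FADS1 did not overlap and those of FADS2 did. Their annotated exons share 490 bases (GENCODE release 29), and exons of FADS2 share 49 bases with FEN1, a replication nuclease gene at a mean of 85.2 TPM. The strand setting of the counting is not given in the sources used here, so the levels of both desaturases are uncertain.

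LPIN1, a phosphatidate phosphatase that makes the diacylglycerol of triglycerides and phospholipids, was measured at 9.91, 9.06 and 8.40 TPM in siNC and at 7.06, 7.05 and 7.65 TPM in siSTRN3. Lower as deposited, it was higher after rescaling (7.28 ± 0.592 and 9.09 ± 0.348 TPM, SD, n = 3), and the groups did not overlap on either scale. Its log2 fold change was 0.29 ± 0.073 SE.

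**Figure D2:**
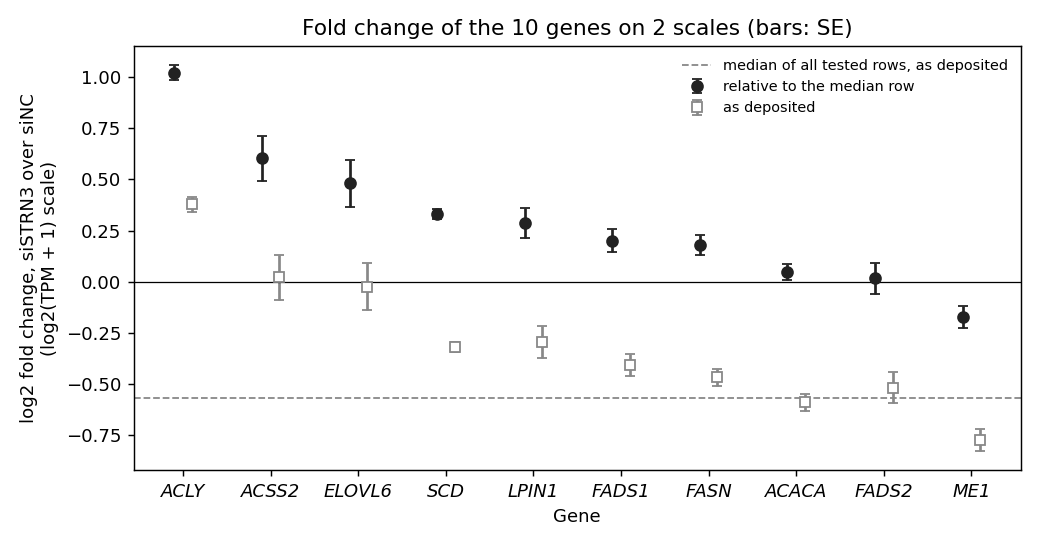
Log2 fold change of each gene, libraries labelled siSTRN3 over siNC, on the log2(TPM + 1) scale with SE, relative to the median row (filled circles) and as deposited (open squares). The dashed line marks the median of all tested rows as deposited, -0.57. ACLY is highest on both scales at 1.02 and 0.38, ACACA and FADS2 lie near the median row, and ME1 is below it.

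Read as a group, 9 of the 10 genes had a relative fold change above 0, with a median of 0.24 and a range from -0.17 to 1.02, against a median of -0.0063 over all 13004 rows. By the limma fit at an adjusted p under 0.05, 7 were called higher and 0 lower, where 11.0% of all rows were called higher, 10.4% lower and 21.3% in either direction. ACLY, ACSS2, FASN, ELOVL6, SCD, FADS1 and LPIN1 were the 7. The rescaled groups did not overlap in 8 of the 10, and in 42.4% of all rows. Since the contrast was used in choosing the genes, nothing is read from these counts. The calls depended on single libraries: 3 genes were called higher without siNC replicate 2 or siSTRN3 replicate 2, 4 without siNC replicate 1, siNC replicate 3 or siSTRN3 replicate 1, and 5 without siSTRN3 replicate 3. ACLY, ACSS2 and SCD were called in all 6 of these fits. On the deposited scale 1 of the 10 was called higher and 7 lower, where 1.01% of all rows were called higher and 80.8% lower.

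Ratios of genes within a library do not depend on the scaling and are given as a description. ACLY stood at 0.519 ± 0.0318 of the TPM of FASN in siNC and at 0.936 ± 0.00249 in siSTRN3 (SD, n = 3). Against ME1, ACLY went from 3.94 ± 0.146 to 9.19 ± 0.0653. Neither ratio overlapped between the groups; both have ACLY, whose rise chose the set, as numerator and so restate that choice. The ratio of ACLY to ACSS2 was 7.55 ± 0.805 in siNC and 9.69 ± 1.07 in siSTRN3, and its groups lay 8.55 or higher against 8.23 or lower. The synthesis genes kept closer to each other, with FASN to ACACA at 2.56 ± 0.205 and 2.80 ± 0.0578 and SCD to FASN at 2.91 ± 0.190 and 3.23 ± 0.120. Their groups did not overlap either, though the gaps were narrow. FASN to ACACA was 2.73 or lower in siNC and 2.76 or higher in siSTRN3. SCD to FASN was 3.10 or lower in siNC and 3.12 or higher in siSTRN3. SCD to ELOVL6 ran from 96.5 to 107 in siNC and from 73.9 to 101 in siSTRN3, with overlapping groups. The ratio of FADS1 to FADS2 was 2.75 ± 0.15 and 3.15 ± 0.321, again with overlapping groups. These ratios share genes and come from the contrast used in the choice, so no test is given.

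**Figure D3:**
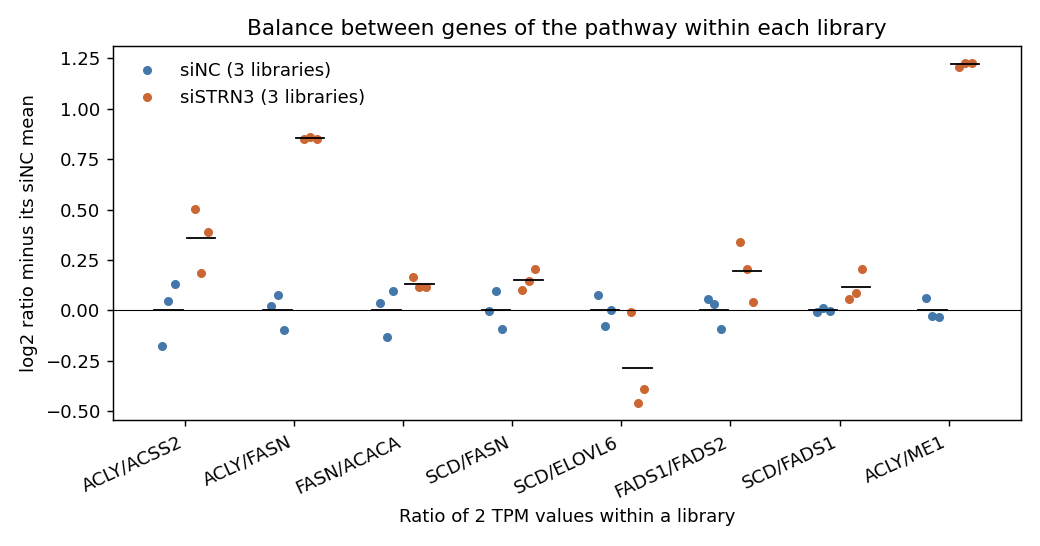
Log2 ratio of pairs of genes within each library, minus its mean over the 3 siNC libraries, with 1 point per library and a bar at the mean of 3. ACLY over ME1 and ACLY over FASN are 1.22 and 0.85 higher in siSTRN3, while SCD over ELOVL6 and FADS1 over FADS2 overlap between the groups.

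The summed level of the 10 genes lay between 638 and 651 TPM in siNC and between 527 and 533 TPM in siSTRN3 as deposited. As a share of the TPM of protein-coding rows it was 0.0834% to 0.0855% in siNC and 0.103% to 0.107% in siSTRN3. Within the sum ACLY held 9.64% to 9.91% in siNC and 15.2% to 15.9% in siSTRN3, and FASN held 17.9% to 19.9% and 16.3% to 17.0%.

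Genes around the pathway were taken from 7 lists of 145 genes, none of them among the 10, of which 121 could be tested. Of these 18 rose and 11 fell (limma, adjusted p under 0.05 over all 13004 rows), beside 11.0% and 10.4% of all rows. All fold changes in this and the next paragraphs are relative to the median row, and the lists were chosen with earlier results of these data known. In the sterol branch, which shares its transcription factors with fatty acid synthesis, 4 of 5 reference genes rose, among them HMGCS1 by 0.98 (adjusted p = 7.21e-05), FDFT1 by 0.63 (adjusted p = 3.43e-04) and SQLE by 0.50 (adjusted p = 3.09e-04) on the log2 scale in the limma fit. The median of these 5 was 0.54, above that of the 10 fatty acid genes; the difference was not tested.

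The genes of SREBP processing, lipogenic transcription factors and their partners, SREBF1 itself among them, lay on both sides of the median row. Of 20 listed genes 18 were tested, with a median of -0.0031. Of these 2 rose and 1 fell, where 21.3% of all rows were called in either direction. INSIG1, the sterol-regulated anchor of SREBP in the endoplasmic reticulum, was measured at 21.2, 22.3 and 17.3 TPM in siNC and at 28.6, 27.9 and 26.4 TPM in siSTRN3. It rose by 1.06 ± 0.090 SE (limma, adjusted p = 9.51e-04), with no overlap between the groups even as deposited. MBTPS1, the site-1 protease that cuts SREBP, rose by 0.48 ± 0.059 SE (limma, adjusted p = 0.00337). NR1H2, the liver X receptor beta that drives SREBF1 transcription, was measured at 22.2, 23.2 and 21.0 TPM in siNC and 9.77, 8.08 and 10.5 TPM in siSTRN3, and its change relative to the median row was -0.55 ± 0.088 SE on the log2 scale (limma, adjusted p = 0.00821). SREBF1, which encodes the lipogenic SREBP itself and is named outside the rule for genes, stood at 0.044 ± 0.068 SE (limma, adjusted p = 0.685; 143, 128 and 134 TPM in siNC, 91.9, 92.6 and 81.7 TPM in siSTRN3 as deposited). Its rescaled groups overlapped.

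Of 17 tested genes of acetyl-CoA and NADPH supply 6 rose and 2 fell, beside 11.0% and 10.4% of all rows. The median was 0.14. SLC25A1, the carrier that brings citrate out of mitochondria to ACLY, rose by 0.24 ± 0.044 SE (limma, adjusted p = 0.0121), with deposited levels of 34.7 ± 1.34 TPM in siNC and 26.3 ± 0.552 TPM in siSTRN3 (SD, n = 3). PGD, an NADPH-making step of the pentose phosphate pathway, rose by 0.18 ± 0.026 SE (adjusted p = 0.00584), and MDH1, the cytosolic malate dehydrogenase that precedes malic enzyme, by 0.20 ± 0.036 SE (adjusted p = 0.0107). Without the filter on low values these 3 genes lost their calls in the limma fit, with SLC25A1 at 0.14 (adjusted p = 0.0913), PGD at 0.078 (adjusted p = 0.102) and MDH1 at 0.10 (adjusted p = 0.134).

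The other listed genes of fatty acid synthesis, elongation and desaturation showed few calls, where 21.3% of all rows were called in either direction. Of 16 tested genes of that list 0 rose and 1 fell, with a median of -0.017. ELOVL4, an elongase of very long chains, fell by 0.35 on the log2 scale (SE 0.090, limma, adjusted p = 0.0351), but its call was lost when any library other than siSTRN3 replicate 1 was left out (adjusted p up to 0.114).

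In glycerolipid assembly, the steps around that of LPIN1, 3 of 26 tested genes rose and 1 fell, beside 11.0% and 10.4% of all rows. The median was -0.028. The acyltransferases AGPAT2 and AGPAT1, which make the phosphatidate that lipin uses, rose by 0.32 ± 0.036 SE and 0.30 ± 0.040 SE (limma, adjusted p = 0.00260 and 0.00393). PCYT2, of phosphatidylethanolamine synthesis, rose by 0.47 ± 0.087 SE (adjusted p = 0.0130; 0.0504 without siNC replicate 1 and 0.0548 without the filter on low values). CDS2, which diverts phosphatidate to CDP-diacylglycerol, fell by 0.36 on the log2 scale (SE 0.081, adjusted p = 0.0238), a call lost when any library other than siSTRN3 replicate 2 was left out (adjusted p up to 0.0777).

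Among genes of fatty acid activation, transport and oxidation 2 of 29 tested rose and 3 fell, beside 11.0% and 10.4% of all rows. The median was -0.038. The 2 that rose were acyl-CoA synthetases. ACSL1, which activates long-chain fatty acids, was measured at 30.6, 31.0 and 29.7 TPM in siNC and at 31.7, 30.2 and 31.7 TPM in siSTRN3 and rose by 0.66 ± 0.037 SE (limma, adjusted p = 1.87e-04). ACSL3, which works on lipid droplets, rose by 0.36 ± 0.052 SE (limma, adjusted p = 0.00554). FABP3, a fatty acid binding protein, fell by 0.53 (SE 0.071, limma, adjusted p = 0.00436), with 27.5 ± 0.285 TPM in siNC and 11.9 ± 1.03 TPM in siSTRN3 as deposited (SD, n = 3), and ACAA2, the mitochondrial thiolase of beta-oxidation, by 0.22 (SE 0.036, limma, adjusted p = 0.00870). The third gene that fell was CPT1A, which admits fatty acids to mitochondria; it was named after its value was seen and stood at -0.35 ± 0.060 SE (limma, adjusted p = 0.0101).

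AMP-activated protein kinase inhibits acetyl-CoA carboxylase by phosphorylation. Of 10 tested genes of this kinase and its upstream kinase, CAB39L among the latter, 1 rose and 3 fell (median -0.14). Of all rows 11.0% were called higher and 10.4% lower. The catalytic subunit gene PRKAA1 fell by 0.50 (SE 0.10, limma, adjusted p = 0.0196) and the beta subunit gene PRKAB2 by 0.37 (SE 0.068, limma, adjusted p = 0.0125). PRKAB2 kept its call when each library was left out in turn, and PRKAA1 lost it without any siNC library or siSTRN3 replicate 1 (adjusted p up to 0.0657). PRKAG1 (0.12, limma, adjusted p = 0.0329) and CAB39L (-0.31, limma, adjusted p = 0.0429) lost theirs without any of the 6, and without the filter on low values (0.020, adjusted p = 0.662, and -0.38, adjusted p = 0.0658, in the limma fit).

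**Figure D4:**
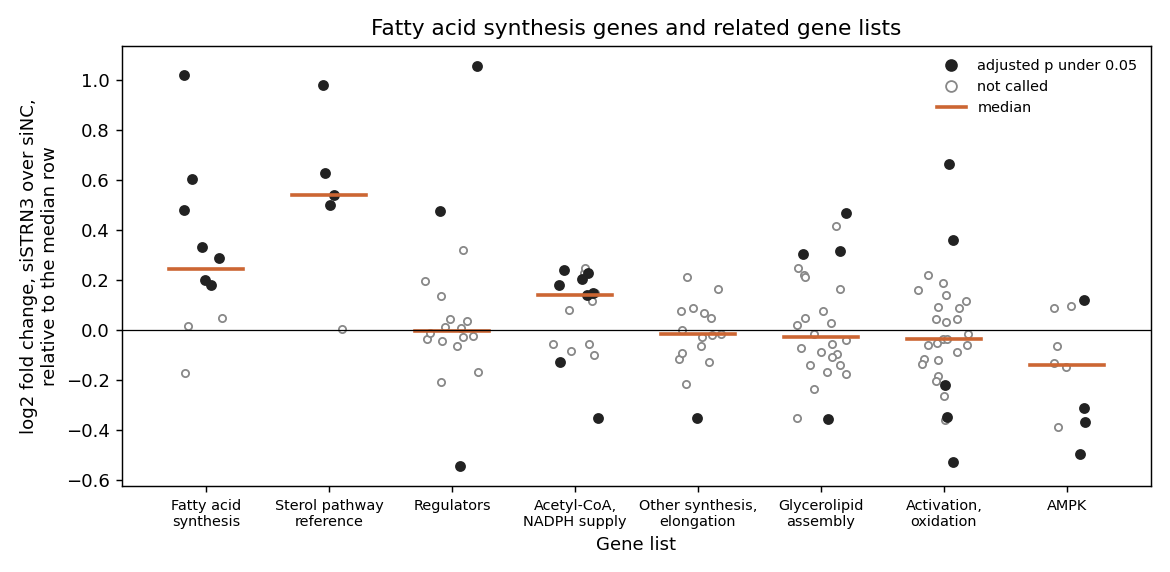
Log2 fold change relative to the median row for the 10 fatty acid genes and the 7 related lists, with 1 point per tested gene, filled where the adjusted p was under 0.05, and a bar at the median of each list. The medians are 0.24 for the fatty acid genes, 0.54 for the sterol reference genes, 0.14 for acetyl-CoA and NADPH supply, and between -0.14 and -0.0031 for the other 5 lists.

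As deposited, 2 of the 121 genes were called higher, INSIG1 and HMGCS1, and 107 lower, so each direction above except those 2 is relative to the median row and turns or ends on the deposited scale for the genes that rose. When TPM was recomputed on protein-coding rows only, 1075 rows were called higher and 1964 lower, against 1424 and 1348 relative to the median row. Exons of MDH1, AGPAT1, PCYT2 and SREBF1 overlap a gene with a mean of at least 1 TPM on the opposite strand, so their levels are uncertain as well. No other annotated transcript matched at least 50% of any of the named genes at 95% identity or more.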

How the data were processed

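RNA from 6 HGC-27 libraries, 3 per treatment, was sequenced by the submitters; groups and replicate numbers come from the titles. The authors deposited a single table of TPM values, as its column headers say, while the file is named for FPKM. It also holds 2 rows without values, the authors' mean TPM per group, the authors' deposited p-values (named for DESeq2, not used here) and gene lengths. HISAT2, Cufflinks, RSEM and the build GRCh38.p10 are named in the submitters' processing notes, without roles; the annotation, the strandedness and the handling of multi-mapping reads are not given there.

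The 13004 rows that reached 1 TPM in 3 or more libraries were tested with limma-trend (limma 3.58.1, R 4.3.3, with the package data.table, version 1.17.8) on log2(TPM + 1), without a block, after rescaling to a common median, with Benjamini-Hochberg adjustment over all rows and a threshold of 0.05. The fit was tested on simulated data. The 10 genes, the 7 related lists, the markers and the scale were chosen with earlier results of these data known. Named are the 10 genes, STRN3, rows that overlap or copy them, and from each list up to 4 called genes with the smallest adjusted p. Some genes that this rule names are not reported here. Alternatives were the deposited scale, upper-quartile scaling, protein-coding rows alone, a pseudocount of 0.1, other filters, the replicate block, each library left out and, for ACLY and SCD, sums with related rows; the sum weighted by length was added after seeing the data.

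Gene types, exons and transcripts came from GENCODE release 29 (GRCh38), promoter windows from RefSeq (GRCh38.p14). Copies were searched with blastn 2.17.0. Tables were handled in Python 3.11.15 (pandas 2.3.3, numpy 2.4.6) and plots drawn with matplotlib 3.10.9.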

Additional observations from a re-analysis of the deposited data

How the results depend on the processing

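The scale decided most directions. As deposited, 1 of the 10 genes was called higher and 7 lower, 2 related genes higher and 107 lower, and 10643 rows in all. The log2 fold changes of FASN (-0.47), SCD (-0.32), FADS1 (-0.41) and LPIN1 (-0.29) reversed. Those of ACACA (-0.59) and FADS2 (-0.52), not called relative to the median row, also went below 0. ELOVL6 went to -0.024 ± 0.11 SE and was not called. Over protein-coding rows alone 4 of the 10 were called higher and 1 lower (ME1), and 20 related genes lower. Without a filter on low values these were 3, 1 and 23, with 10 related genes higher. With single libraries left out, 3 to 5 of the 10 were called higher, 6 to 10 related genes lower, and 1485 to 2128 rows in all. With the replicate number as a block 4 of the 10 and 1745 rows were called, and 7 related genes lower. Same-numbered libraries did not deviate together (correlations 0.057, -0.021 and -0.080), and siNC replicate 2 correlated best with siSTRN3 replicate 3, so the numbers were not taken as pairs. ACLY lost its call only when summed in TPM with AC125257.2 (0.63), and SCD was called higher under every alternative except the deposited scale. A filter at 5 TPM gave no value for ELOVL6, which did not pass it. The cause of these shifts was not tested. TPM gives no depth, so counting error is unknown.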

Other observations

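The row AC125257.2, 156 bases antisense within ACLY exons, was listed at 80.7 TPM in siNC replicate 2 and at 0 in the other 5 libraries. MIR1908, which lies within an exon of FADS1, was listed at 0 in all 6 libraries.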
